A study of Mus musculus with 8 samples.

Results

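The Cyp2c genes encode a subfamily of cytochrome P450 enzymes, haem proteins of the endoplasmic reticulum that oxidise drugs, steroids, retinoids, bile acids and polyunsaturated fatty acids. They were followed in the livers of mice given rilpivirine and of controls. The members were the genes whose symbol in the platform annotation was exactly Cyp2c29, Cyp2c37, Cyp2c38, Cyp2c39, Cyp2c44, Cyp2c50, Cyp2c54, Cyp2c55 or Cyp2c70, with the probe set of highest mean over the 8 arrays standing for a gene. Of these 9 names 8 were listed, among 22180 genes with a probe set of their own, and all 8 passed the filter on low values. The ninth, Cyp2c44, is an older name of the gene listed as Cyp2c23. Its values are given under that symbol and are not in the counts over the 8 members.

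Total RNA was taken from liver of wild-type C57BL/6 mice and measured on Affymetrix whole-transcript arrays, 4 labelled rilpivirine and 4 labelled control, numbered 1 to 4 in each group. Rilpivirine is a non-nucleoside inhibitor of HIV reverse transcriptase; it was given by mouth every day at doses described as equivalent to those of patients. All 8 samples, the controls included, are labelled as non-alcoholic fatty liver disease. Different diets are named, normal or with 60% fat, for 3 months, but not which array had which, and neither the age of the mice nor what the controls received is given in the sources used here. The labels do not say that each array came from a separate mouse, so the p-values measure the spread between these samples, which may be technical.

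In the mouse most Cyp2c genes stand side by side in a cluster on chromosome 19 and arose by duplication, with Cyp2c23 apart from the rest on the same chromosome. Several of them turn arachidonic acid into epoxyeicosatrienoic acids, lipid mediators of vascular tone and inflammation, and Cyp2c70 makes the muricholic acids that set mouse bile apart from human bile. In hepatocytes their transcription depends on the nuclear receptor HNF4A, and drugs induce several of them through the nuclear receptors CAR and PXR. The members are close copies of each other, and how far the probes of this platform tell them apart was not analysed here.

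The 250 bases before the start site that the RefSeq table gives are shown for 6 members (for Cyp2c29, Cyp2c38 and Cyp2c55 the annotated gene span starts further upstream, so these windows reach into it), because the pairs among them range from nearly the same promoter to unlike ones and their transcripts are compared further on. They come from RefSeq on GRCm38.p6, where 7 of the 8 members have an entry. Capitals mark exact matches on either strand to CAAAGTC, the core of the element bound by HNF4A, to TATAAA, the TATA box, and to AGGTCA, the half-site shared by many nuclear receptors; no 2 matches overlap.
Cyp2c29, chr19:39286835-39287084, + strand: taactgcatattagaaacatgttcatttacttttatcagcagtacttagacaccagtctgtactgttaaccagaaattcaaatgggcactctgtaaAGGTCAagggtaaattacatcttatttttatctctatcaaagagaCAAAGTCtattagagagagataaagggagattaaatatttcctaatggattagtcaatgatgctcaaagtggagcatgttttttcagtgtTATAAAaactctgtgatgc
Cyp2c38, chr19:39463076-39463325, - strand: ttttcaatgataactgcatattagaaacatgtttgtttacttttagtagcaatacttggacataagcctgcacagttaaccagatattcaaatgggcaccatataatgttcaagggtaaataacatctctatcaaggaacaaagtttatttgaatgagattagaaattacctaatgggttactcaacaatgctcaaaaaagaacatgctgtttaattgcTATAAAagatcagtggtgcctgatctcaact
Cyp2c37, chr19:39992174-39992423, + strand: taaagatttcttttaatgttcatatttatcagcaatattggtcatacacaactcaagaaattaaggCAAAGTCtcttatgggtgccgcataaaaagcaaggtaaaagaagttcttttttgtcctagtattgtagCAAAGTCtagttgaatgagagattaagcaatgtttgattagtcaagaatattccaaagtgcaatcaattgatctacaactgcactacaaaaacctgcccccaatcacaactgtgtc
Cyp2c50, chr19:40089429-40089678, + strand: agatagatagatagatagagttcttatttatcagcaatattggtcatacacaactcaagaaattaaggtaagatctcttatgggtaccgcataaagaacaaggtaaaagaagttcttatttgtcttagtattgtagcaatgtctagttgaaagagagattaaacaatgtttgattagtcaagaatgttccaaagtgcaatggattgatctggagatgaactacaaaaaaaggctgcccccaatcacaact
Cyp2c55, chr19:39006769-39007018, + strand: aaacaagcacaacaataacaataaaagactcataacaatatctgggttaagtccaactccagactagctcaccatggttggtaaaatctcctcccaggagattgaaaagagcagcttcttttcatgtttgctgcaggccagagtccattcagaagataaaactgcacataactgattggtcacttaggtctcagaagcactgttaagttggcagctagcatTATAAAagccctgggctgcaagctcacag
Cyp2c70, chr19:40187287-40187536, - strand: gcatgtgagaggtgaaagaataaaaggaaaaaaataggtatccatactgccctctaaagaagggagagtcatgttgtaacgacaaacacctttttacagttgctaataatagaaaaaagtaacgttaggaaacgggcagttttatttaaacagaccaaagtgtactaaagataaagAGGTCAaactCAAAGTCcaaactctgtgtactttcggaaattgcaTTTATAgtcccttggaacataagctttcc

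The core CAAAGTC was found in the windows of 4 of these 7 members, Cyp2c29, Cyp2c37, Cyp2c39 and Cyp2c70, with 2 matches in Cyp2c37. Of all 32851 promoter entries 3.84% hold it. TATAAA was found in 4 members, Cyp2c29, Cyp2c38, Cyp2c55 and, read on the opposite strand, Cyp2c70, against 12.4% of all entries, and AGGTCA in 3, Cyp2c29, Cyp2c39 and Cyp2c70, against 14.0%. These matches are descriptions of letters, not of bound sites. Among the members the closest windows were those of Cyp2c37 and Cyp2c50, with 84.3% identity over 255 aligned columns. Cyp2c38 and the upstream of 2 Cyp2c39 entries shared 75.8%, and Cyp2c29 and Cyp2c38 shared 68.8%.

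Cyp2c29 was the only one of the 8 members whose groups did not overlap. Its transcript was 1.27-fold higher with rilpivirine (95% confidence interval 1.06 to 1.52), and it did not pass the test over all genes. Cyp2c55 and Cyp2c54 had the largest differences of opposite sign, 0.51 and -0.46 log2 (rilpivirine minus control), each with a wide spread within the rilpivirine group. Cyp2c37, Cyp2c39 and Cyp2c70 had differences under 0.08 log2 in size, and the median over the 8 members was -0.03 log2, beside -0.03 over all 16635 genes tested. The members' median has no settled direction: leaving out control replicate 2 gave -0.17 and rilpivirine replicate 3 gave -0.16, whereas leaving out control replicate 4 gave 0.042. With both rilpivirine replicates 1 and 2 left out it was 0.080.

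Cyp2c29 makes epoxyeicosatrienoic acids and is one of the members induced through CAR. With rilpivirine it measured 11.47, 11.46, 11.55 and 11.46 log2 in replicates 1 to 4, against 11.01, 11.10, 11.38 and 11.06 log2 in control replicates 1 to 4. All 4 rilpivirine arrays lay above the highest control, and they differed from each other by less than the controls did. The means were 11.48 ± 0.04 log2 with rilpivirine and 11.14 ± 0.17 log2 in controls (SD, n = 4 each), a log2 difference of 0.35 ± 0.12 (SE). Limma gave an unadjusted p of 0.0126 and an adjusted p of 0.855, and the exact two-sided permutation test gave 0.0286, the smallest p that 70 splits of 4 against 4 allow. The difference kept its sign under every alternative tried, from 0.17 to 0.43 log2, with adjusted p from 0.531 to 0.999. The groups overlapped once each array was centred on its median, where the difference was 0.33 log2. A second, dim probe set of Cyp2c29, at a mean of 2.06 log2 in both groups, showed no separation, and averaging both probe sets gave the 0.17.

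**Figure D1:**
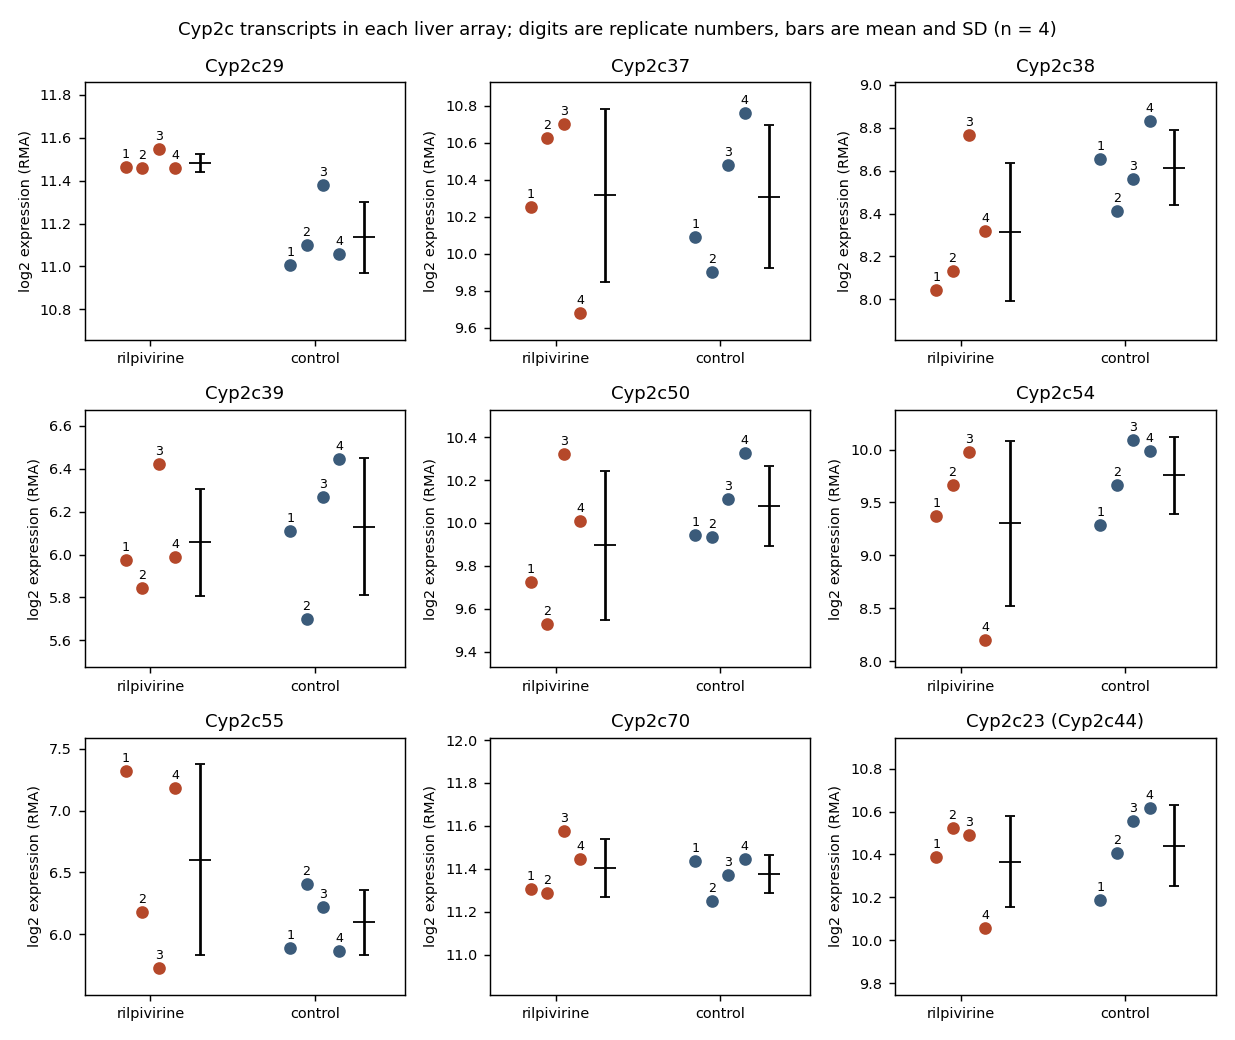
Expression of the 8 members and of Cyp2c23 (the listed symbol of Cyp2c44) on each array, in log2 units on the y axis of each panel. Red points are the 4 rilpivirine arrays and blue points the 4 control arrays, numbered by replicate, and black bars give the mean and SD. The Cyp2c29 points do not overlap between groups, and rilpivirine replicate 4 is the lowest point of Cyp2c37, Cyp2c54 and Cyp2c23.

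None of the 8 members passed an adjusted p of 0.05 in limma, and over all genes tested the share called was 0%. At an unadjusted p under 0.05 there was 1 member of 8, Cyp2c29, where 5.21% of all genes lay under it. The groups did not overlap in 1 of 8 members, against 3.04% of all genes. In the mean 4 members were higher with rilpivirine and 4 lower, and 43.1% of all genes were higher. Read against these shares, a single member is not a result about the family.

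**Figure D2:**
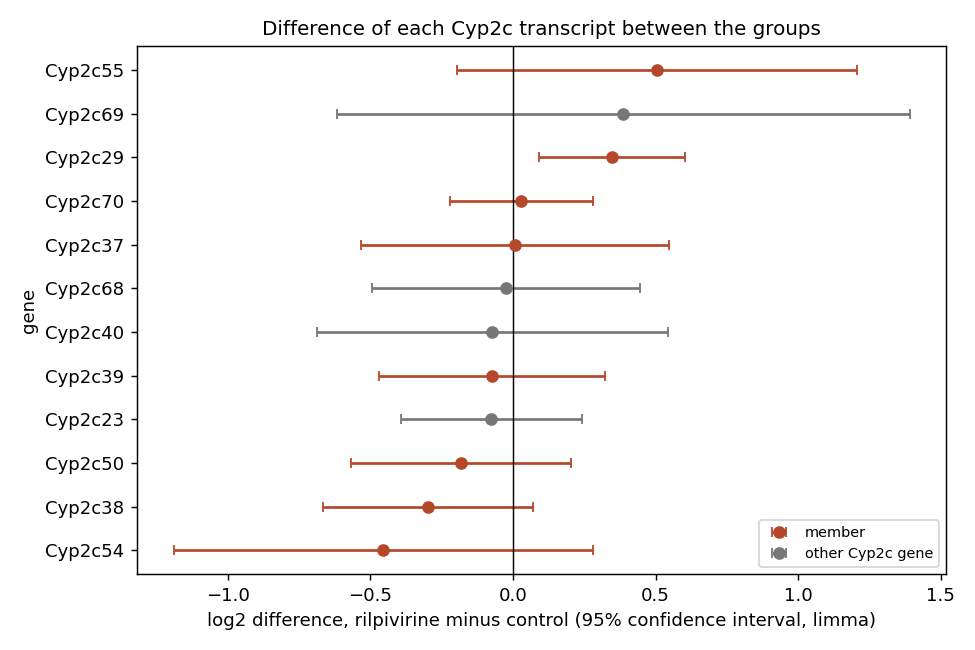
Log2 difference between rilpivirine and control (rilpivirine minus control) on the x axis for the 12 Cyp2c genes tested, with 95% confidence intervals from limma; red marks the 8 members and grey the other Cyp2c genes. The interval of Cyp2c29 lies between 0.09 and 0.60, and those of the other 11 genes include 0.

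Cyp2c38, Cyp2c39, Cyp2c50 and Cyp2c54 each had a negative difference with overlapping groups, and none passed the test. The sign of Cyp2c39 and Cyp2c50 turned under some alternatives. Cyp2c38, which like Cyp2c29 makes epoxyeicosatrienoic acids, measured 8.05, 8.13, 8.77 and 8.32 log2 with rilpivirine, against 8.65, 8.41, 8.56 and 8.83 log2 in controls. Rilpivirine replicates 1, 2 and 4 lay below every control and replicate 3 lay among the controls, so the groups overlapped. The difference was -0.30 ± 0.17 log2 (SE; limma, unadjusted p = 0.101, adjusted p = 0.890). It was -0.45 without rilpivirine replicate 3, where the groups did not overlap (adjusted p = 0.636), and -0.07 without rilpivirine replicates 1 and 2 together.

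Cyp2c39 makes epoxyeicosatrienoic acids and oxidises retinoic acid. It measured 5.98, 5.84, 6.42 and 5.99 log2 with rilpivirine, against 6.11, 5.70, 6.27 and 6.44 log2 in controls, and the groups overlapped. The difference was -0.07 log2 (95% confidence interval -0.47 to 0.32), and it was 0.0026 after a further quantile normalization.

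Cyp2c50, an epoxygenase of arachidonic and linoleic acid, measured 9.73, 9.53, 10.32 and 10.01 log2 with rilpivirine, against 9.94, 9.93, 10.11 and 10.33 log2 in controls. Rilpivirine replicates 1 and 2 were the lowest 2 of the 8 arrays and replicate 3 was level with the highest control. The difference was -0.18 log2 (95% confidence interval -0.57 to 0.20). It was -0.06 without rilpivirine replicate 2, -0.10 without control replicate 4, -0.32 without rilpivirine replicate 3 and 0.09 without rilpivirine replicates 1 and 2 together.

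Cyp2c54, a close relative of Cyp2c50 with like substrates, measured 9.37, 9.67, 9.98 and 8.20 log2 with rilpivirine, against 9.28, 9.66, 10.09 and 9.99 log2 in controls. Rilpivirine replicate 4 was the lowest of the 8 arrays by over 1 log2 unit, while the other 3 lay within the range of the controls. The means were 9.30 ± 0.78 log2 with rilpivirine and 9.76 ± 0.36 log2 in controls (SD, n = 4 each). The difference was -0.46 log2 (95% confidence interval -1.19 to 0.28; limma, adjusted p = 0.890), and it was -0.09 without rilpivirine replicate 4.

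Cyp2c37, which hydroxylates arachidonic acid, measured 10.25, 10.63, 10.70 and 9.68 log2 with rilpivirine, against 10.09, 9.90, 10.48 and 10.76 log2 in controls. Replicate 4 was again the lowest rilpivirine array, and both groups covered nearly the same range. The difference was 0.01 log2 (95% confidence interval -0.53 to 0.55). It was 0.22 without rilpivirine replicate 4 and -0.13 without control replicate 2, so its direction rests on single arrays.

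Cyp2c55 is the member best known outside the liver, in the colon, and PXR and CAR induce it in mouse liver. Its brighter probe set measured 7.32, 6.18, 5.73 and 7.18 log2 with rilpivirine, against 5.89, 6.41, 6.22 and 5.86 log2 in controls. Replicates 1 and 4 of the rilpivirine group lay above every control, replicate 2 among the controls and replicate 3 below them. The means were 6.60 ± 0.77 log2 with rilpivirine and 6.10 ± 0.26 log2 in controls (SD, n = 4 each). The difference was 0.51 log2 (95% confidence interval -0.20 to 1.21; limma, adjusted p = 0.890). It was 0.27 without rilpivirine replicate 1, 0.31 without replicate 4 and 0.80 without replicate 3 of that group.

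A second, dimmer probe set of Cyp2c55 gave another order of the arrays. It measured 4.18, 3.75, 4.39 and 7.20 log2 with rilpivirine, against 4.25, 4.09, 3.79 and 4.01 log2 in controls. Rilpivirine replicate 4 stood 2.81 log2 above the highest of the other 7 arrays, whereas replicate 1, the highest in the brighter probe set, lay within the range of the controls. The difference between groups was 0.85 log2 over all arrays and 0.08 without replicate 4. Over the 8 arrays the probe sets had a Pearson r of 0.54 (exact permutation p = 0.197) and a Spearman rho of 0.07 (exact permutation p = 0.882), and r was -0.63 without the 2 arrays farthest from the median of the brighter probe set. Rilpivirine replicate 4 was above every control in both probe sets.

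**Figure D3:**
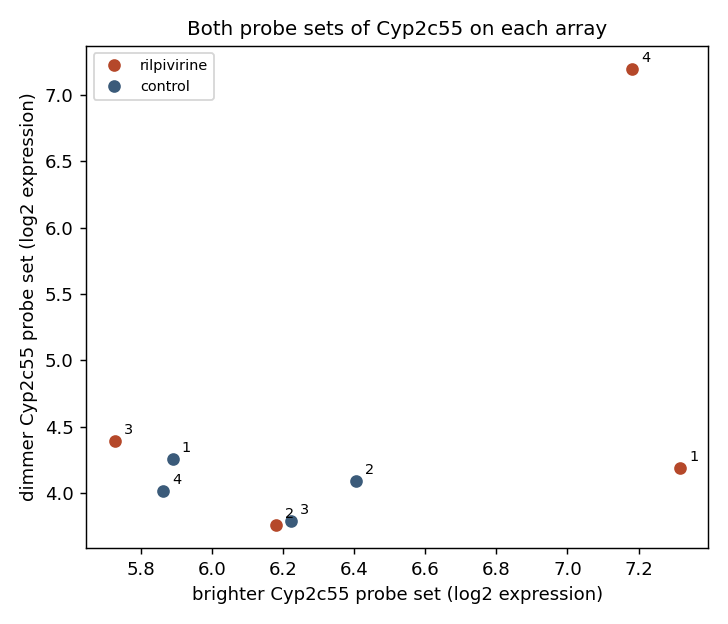
The brighter (x axis) and dimmer (y axis) probe sets of Cyp2c55 in log2 units, with 1 point per array, red for rilpivirine and blue for control, numbered by replicate. Rilpivirine replicate 4 is high in both probe sets, and replicate 1 is high in the brighter probe set at 7.32 and among the controls in the dimmer at 4.18.

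Cyp2c70, the muricholic acid enzyme of mouse liver, measured 11.31, 11.29, 11.57 and 11.45 log2 with rilpivirine, against 11.43, 11.25, 11.37 and 11.45 log2 in controls. The groups overlapped, and the pooled SD within groups, 0.11 log2, was the smallest of the 8 members. The difference was 0.03 log2, with a 95% confidence interval of -0.22 to 0.28, or 0.86-fold to 1.21-fold.

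Cyp2c23, the gene also called Cyp2c44 and an epoxygenase of liver and kidney, measured 10.39, 10.52, 10.49 and 10.06 log2 with rilpivirine, against 10.19, 10.41, 10.56 and 10.62 log2 in controls. Replicate 4 was the lowest of the 8 arrays here too, and the other 3 rilpivirine arrays lay among the controls. The difference was -0.08 log2 (95% confidence interval -0.39 to 0.24).

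Whether members differed from each other in their response was tested on the log2 ratio of 2 members within each array, which shows unequal change but not which of the 2 changed. In 0 of 28 pairs did the groups fail to overlap, where 3.28% of all pairs of genes tested did so. The smallest p of the exact two-sided permutation test was 0.0571, with an adjusted p of 0.300 over the 28 pairs, and 0 pairs had an unadjusted p under 0.05. It was reached by the ratios of Cyp2c29 to Cyp2c38, Cyp2c39, Cyp2c50, Cyp2c54 and Cyp2c70. The ratio of Cyp2c29 to Cyp2c38 was 0.65 log2 higher with rilpivirine, running from 2.78 to 3.42 with rilpivirine and from 2.23 to 2.82 in controls. The ratio of Cyp2c29 to Cyp2c70 was 0.32 log2 higher, from -0.03 to 0.17 with rilpivirine and from -0.43 to 0.01 in controls. With Cyp2c23 as a ninth gene, 1 of 36 pairs did not overlap, the ratio of Cyp2c29 to Cyp2c23, at 0.94 to 1.40 log2 with rilpivirine and 0.44 to 0.82 log2 in controls (exact permutation p = 0.0286, adjusted p = 0.343 over the 36 pairs). With 3 arrays against 4, groups separate more often in all genes: the count was 9 of 28 without rilpivirine replicate 3, where 7.37% of all pairs of genes did not overlap, and 4 of 28 without control replicate 3, where 4.87% did not. The pairs share members and so are not independent counts. It was at most 2 without any other single array, beside 5.02% to 8.23% of all pairs.

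The members varied among arrays of the same group to very different degrees. The pooled SD within groups was 0.11 log2 for Cyp2c70 and 0.12 for Cyp2c29, below the median of 0.21 over all genes tested. It was 0.43 for Cyp2c37, 0.58 for Cyp2c55 and 0.61 for Cyp2c54, the last above 98.4% of all genes. Cyp2c38, Cyp2c39 and Cyp2c50 lay between, at 0.26 to 0.29.

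**Figure D4:**
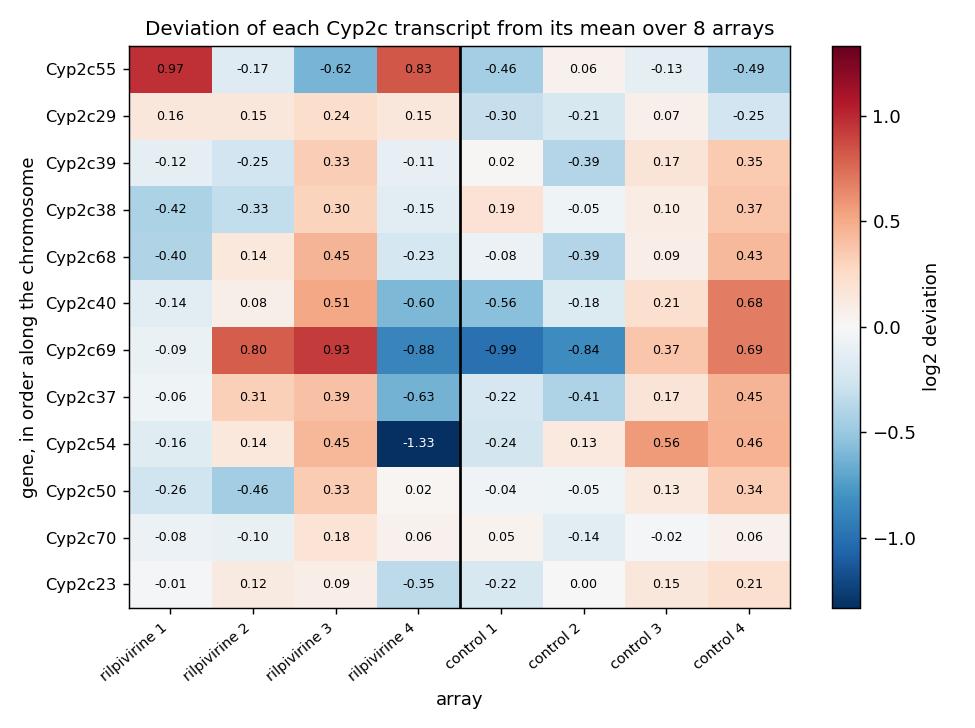
Deviation of each of the 12 Cyp2c genes tested from its own mean over 8 arrays, in log2 units by colour and number, with rilpivirine arrays left of the black line and control arrays right of it, and genes in their order along the chromosome. Rilpivirine replicate 4 is at -1.33 in Cyp2c54 and at 0.83 in Cyp2c55, and control replicate 4 is above the mean in every gene but Cyp2c29 and Cyp2c55.

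Some Cyp2c transcripts varied together across the arrays, also within groups. Among the 12 Cyp2c genes tested, 66 pairs gave Pearson r from -0.78 to 0.94 over 8 arrays, with a median of 0.39. Exact permutation p-values adjusted over the 66 pairs were under 0.05 in 8 pairs for Pearson r and in 2 for Spearman rho. Of the 28 pairs among the 8 members, 1 passed for Pearson r and 0 for Spearman rho. The share over all pairs of genes was not counted, so these counts are not a trait of the family. The 8 arrays share one normalization.

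Among members the highest correlation was that of Cyp2c38 and Cyp2c50, with r = 0.89 (exact permutation p = 0.00394, adjusted p = 0.0405) and rho = 0.86 (exact permutation p = 0.0107, adjusted p = 0.0786). It was 0.76 without the 2 arrays farthest from the median of Cyp2c38 and 0.88 after the group means were removed. Cyp2c37 and Cyp2c54, neighbours in the order of the genes tested along the chromosome, had r = 0.81 (exact permutation p = 0.00801, adjusted p = 0.0540) and rho = 0.79 (exact permutation p = 0.0279, adjusted p = 0.123). That r was 0.82 without the 2 farthest arrays and 0.66 without rilpivirine replicate 4. Cyp2c37 and Cyp2c50, whose promoter windows are the most alike among the members, had r = 0.25 (exact permutation p = 0.536, adjusted p = 0.693) and rho = 0.43 (exact permutation p = 0.299, adjusted p = 0.42), and r = 0.42 without the 2 farthest arrays. Cyp2c29 had r between -0.45 and 0.38 with the other 7 members (exact permutation p from 0.252 to 0.959, none past adjustment). The brighter probe set of Cyp2c55 had a negative correlation with Cyp2c38 that did not pass adjustment. Its r was -0.78 (exact permutation p = 0.0225, adjusted p = 0.0928) and its rho -0.83 (exact permutation p = 0.0154, adjusted p = 0.0923), with r = -0.91 without the 2 farthest arrays. The dimmer probe set, which gave another order of the arrays, was not compared with Cyp2c38.

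Other Cyp2c genes were followed beside the members. Of 7 others with a probe set of their own, Cyp2c23 included, 4 passed the filter, and 0 of these 4 passed the test over all genes. Cyp2c65, Cyp2c66 and the pseudogene Cyp2c53-ps lay under the filter at group means of 1.61 to 2.02 log2. Cyp2c69 measured 10.04, 10.93, 11.06 and 9.25 log2 with rilpivirine, against 9.13, 9.28, 10.50 and 10.81 log2 in controls. The arrays of both groups were spread over more than 1 log2 unit, and its difference was 0.39 ± 0.46 log2 (SE). Its r with Cyp2c37 was 0.94 (exact permutation p = 0.00144, adjusted p = 0.0405), with rho = 0.86 (exact permutation p = 0.0107, adjusted p = 0.0786) and r = 0.95 without the 2 farthest arrays. Cyp2c40 differed by -0.07 and Cyp2c68 by -0.02 log2, with the sign turned to 0.0024 and 0.020 after a further quantile normalization.

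Outside the family, the genes whose profile over the 8 arrays was most like the members' mean scaled profile were Albfm1, Atp6v0d2, Amy1, Nars2 and Enpp3, with Pearson r of 0.99, 0.97, 0.97, 0.96 and 0.95 and Spearman rho of 0.83 to 1. They were picked as the highest of all genes tested, so no p is given. Their own differences between groups ran from -0.02 to 0.18 log2. The members did not share 1 profile, as r among their 28 pairs ran from -0.78 to 0.89, with a median of 0.26. Likeness to their mean is thus not likeness to each member.

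Genes that supply or control the Cyp2c enzymes were taken from lists fixed by role. In each list 0 members passed over all genes in either direction. Of 20 nuclear receptors and liver factors tested, 5 were higher in the mean and 15 lower, with a median difference of -0.12 log2 beside -0.03 over all genes. Nr1i2, which encodes PXR, measured 7.11 ± 0.23 log2 with rilpivirine and 7.54 ± 0.38 log2 in controls (SD, n = 4 each), a difference of -0.43 ± 0.19 (SE; limma, adjusted p = 0.890). Ppara, the fatty acid receptor PPAR alpha, differed by -0.41 ± 0.15 log2 (SE), and Ppargc1a, the coactivator PGC1 alpha, by -0.77 ± 0.35 (SE). Nr1i3, which encodes CAR, differed by -0.23 ± 0.16 log2 (SE), and Hnf4a by -0.09 ± 0.11 (SE).

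Electron transfer and haem supply serve every P450 of the endoplasmic reticulum. Such genes numbered 12 among those tested, of which 4 were higher and 8 lower (median -0.09 log2). Alas1, the rate-limiting enzyme of haem synthesis, measured 10.29 ± 0.36 log2 with rilpivirine and 10.76 ± 0.21 log2 in controls (SD, n = 4 each), a difference of -0.47 ± 0.18 (SE; limma, adjusted p = 0.890), with overlapping groups. Cyb5a, which encodes cytochrome b5, differed by -0.35 ± 0.18 log2 (SE), and Fech, which puts iron into haem, by -0.25 ± 0.15 (SE).

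Of the genes of arachidonic acid epoxide and eicosanoid metabolism 21 were tested, 8 higher and 13 lower in the mean (median -0.03 log2). Ephx2, the soluble epoxide hydrolase that removes epoxyeicosatrienoic acids, measured 10.48 ± 0.06 log2 with rilpivirine and 10.42 ± 0.02 log2 in controls (SD, n = 4 each). Alox12, a lipoxygenase at a low level, differed by 0.34 ± 0.15 log2 (SE), the epoxygenase Cyp2j6 by -0.33 ± 0.19 and the prostaglandin synthase Ptges by 0.29 ± 0.20 (SE).

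Around Cyp2c70, 17 genes of bile acid synthesis, transport and regulation gave 5 higher and 12 lower in the mean (median -0.07 log2). The groups did not overlap in 3 of the 17, all higher with rilpivirine, where 3.04% of all genes did not overlap. Acox2, the peroxisomal oxidase that shortens the bile acid side chain, measured 8.48 ± 0.13 log2 with rilpivirine and 8.08 ± 0.13 log2 in controls (SD, n = 4 each), a difference of 0.40 ± 0.12 (SE; limma, adjusted p = 0.813). Abcb11, the bile salt export pump, measured 10.10 ± 0.09 log2 with rilpivirine and 9.80 ± 0.06 log2 in controls (SD, n = 4 each), a difference of 0.30 ± 0.11 (SE; limma, adjusted p = 0.855). The third was the synthesis enzyme Hsd3b7, at 0.59 ± 0.13 log2 (SE; limma, adjusted p = 0.769). In these 3 genes the groups also did not overlap after centring or a further quantile normalization. Cyp7a1, the rate-limiting enzyme, differed by -0.45 ± 0.26 log2 (SE).

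Other P450 genes of families 1 to 4 gave 9 higher and 18 lower of 27 tested, with a median of -0.09 log2. Cyp3a13 measured 8.24 ± 0.26 log2 with rilpivirine and 8.91 ± 0.31 log2 in controls (SD, n = 4 each), a difference of -0.67 ± 0.18 (SE; limma, adjusted p = 0.777). Cyp2a4 differed by -0.52 ± 0.20 log2 and Cyp2a5 by -0.56 ± 0.22 (SE). Cyp3a11, a main target of PXR, differed by -0.20 ± 0.25 log2 (SE).

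Hepatocyte markers had a summed level of 15.2 to 15.4 log2 in both groups, and 5 of 10 were higher and 5 lower. The brightest genes weigh most in that sum, such as Alb at 13.30 log2 with rilpivirine and 13.25 log2 in controls. In whole liver, fewer cells of a type and less RNA per cell cannot be told apart. Pericentral markers, of the zone in which many P450 enzymes are made, were higher in 2 of 11 and lower in 9 of 11, and their summed level was 13.6 to 13.8 log2 with rilpivirine, against 13.7 to 13.8 log2 in controls. Periportal markers were higher in 2 of 10 and lower in 8 of 10. Sinusoidal endothelial markers summed to 10.95 to 11.40 log2 with rilpivirine, against 10.67 to 11.14 log2 in controls, and were higher in 7 of 8. Kupffer cell and macrophage markers summed to 10.72 to 11.01 log2 with rilpivirine, against 10.94 to 11.19 log2 in controls, and were lower in 10 of 11. Stellate cell markers summed to 10.7 to 11.1 log2 with rilpivirine, against 10.8 to 11.1 log2 in controls, and were higher in 3 of 9. In each of these lists 0 markers passed the test over all genes. Over all genes tested the groups did not overlap in 3.04%. They did not overlap in 2 of 11 Kupffer cell and macrophage markers, the complement genes C1qa and C1qb, both lower with rilpivirine. The same held for 1 of 11 pericentral markers, Slc1a2, and 1 of 9 stellate markers, Cygb, both lower. The groups of Slc1a2 overlapped once each array was centred on its median. In 1 of 7 intestinal markers, the mucin gene Muc2, the groups did not overlap either. Muc2 was higher at a low level, 3.77 log2 with rilpivirine and 3.49 log2 in controls. Kidney tubule and cholangiocyte markers summed to at most 6.54 log2 on any array. Among them the cholangiocyte marker Cftr and the kidney markers Slc12a1, Lrp2 and Kap lay under the filter.

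Rilpivirine replicate 4, the array on which Cyp2c54 was lowest and the dimmer Cyp2c55 probe set highest, also had the highest summed level of fat cell markers. The sum was 8.70 log2 on it, against 6.49 to 6.92 in the other 3 rilpivirine arrays and 6.84 to 7.48 in controls. Fabp4 and Plin1 were also highest on it, but Lep, at 3.00 log2, lay within the 2.79 to 3.12 log2 of the controls. Retn reached 5.38 log2 there, against 2.96 to 3.30 in controls, and the lipid droplet gene Cidec, which fatty hepatocytes also express, 7.85 log2, against 5.54 to 6.49 in controls. Adipoq, a defining marker of fat cells, lay under the filter. That filter is on the mean over all arrays, so it does not show the level of Adipoq on this array. Intestinal epithelium markers summed to 9.15 log2 on this array, within the 8.30 to 9.19 log2 of the controls, most of it Fabp2. Cdh17 lay under the same filter, which does not show its level on this array either. The part of these and the other cell types in the Cyp2c values was not tested.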

How the data were processed

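Liver RNA of 8 samples was measured, 300 ng each, on 1-colour Affymetrix whole-transcript arrays. Per the submitters' processing notes the authors used RMA and limma, and what they deposited are log2 values of 41345 probe sets; RMA corrects background and normalizes arrays by quantiles, which hides changes of total mRNA. Tool versions and a genome build, not given in the sources used here, stay unknown. Of the probe sets 23521 had 1 symbol in the platform annotation, 1814 several and 16010 none listed; only the first were used, which leaves out 1 with several Cyp2c symbols. The brightest probe set per symbol gave 22180 genes, of which 16635 had a mean at or above the 25th percentile, 2.72 log2, and were tested.

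Group differences came from limma 3.58.1 (lmFit, eBayes; R 4.3.3), with two-sided p-values, Benjamini-Hochberg adjustment over all genes and a threshold of 0.05, checked on simulated data. Pairs of members were compared on within-array ratios with the exact permutation test, adjusted over 28 pairs of the 8 listed members (36 with Cyp2c23). All members, 3 genes of smallest p per pathway or family list, cell type markers under the filter and 5 genes of most alike profile were named by rule; Cyp2c68 and the Cyp2c genes under the filter, Ephx2, Nr1i3, Hnf4a, Cyp7a1, Cyp3a11 and the other cell type markers were added after their values were seen. Members and lists were chosen with earlier results of these data known. Promoters were aligned with Biopython 1.88. The array medians lay between 3.33 and 3.45 log2, no 2 arrays were identical, and rilpivirine replicate 2 had the lowest mean correlation with the others, 0.965 against 0.976 to 0.981. Precision is limited by the number of arrays, 4 in each group. Alternatives covered moderation, weights, scaling, filters, probe sets, a replicate block and samples left out.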

Additional observations from a re-analysis of the deposited data

Results flagged for a closer look

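In rilpivirine replicate 3 Cyp2c29 measured 11.55 log2, apart from 11.46 to 11.47 in the rest of its group; the gap was 0.93 of the whole range of the group, against a critical value of 0.829. The range itself was small, and the array lay on the side away from the controls. It was the only such case among 28 groups of 4 screened (12 Cyp2c genes with 14 probe sets), and chance alone gives about 1 in 20.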

How the results depend on the processing

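The count of genes called and the count of members called were 0 under every alternative. The members without overlap between groups, 1 of 8, became 0 after centring of arrays and with the mean of all probe sets, 2 without both rilpivirine replicates 1 and 2, and 1 to 2 with single arrays left out. The pairs of members without overlap, 0 of 28, became 1 after a further quantile normalization, 1 with Cyp2c23 as a ninth member, 1 without both rilpivirine replicates 1 and 2, and 0 to 9 with single arrays left out. With the replicate number as a block, 3 of 28 pairs had all 4 within-number differences of 1 sign. That criterion is looser than non-overlap, and its share over all pairs of genes was not counted, so the 3 is not set against the 0. The block moved no other count, and Cyp2c29 had an adjusted p of 0.689 in limma with it. The labels do not say whether the numbers pair the arrays. Same-numbered arrays correlated at -0.25, 0.46, -0.09 and 0.07 in their deviations from the group means, and arrays of unlike number at -0.47 to 0.39. So few correlations cannot decide whether the arrays are paired. Cyp2c37 turned to -0.10 with array weights, -0.0085 after centring and -0.12 without both rilpivirine replicates, and ran from -0.13 to 0.22 with single arrays left out. Cyp2c39 turned to 0.0026 after the quantile normalization and 0.073 without both rilpivirine replicates, and ran from -0.22 to 0.031. Cyp2c50 turned to 0.087 without both, and Cyp2c70 ran from -0.027 to 0.068 with single arrays left out. Without both, the eicosanoid median was 0.053 and that of the nuclear receptors -0.20. The cause of these changes was not tested. The members' median ran from -0.17 to 0.042 with single arrays left out, and was 0.017 after the quantile normalization and 0.080 without both. Small list medians also turned sign: other Cyp2c genes reached 0.13 without control replicate 4, eicosanoid genes 0.012 with a single array left out and bile acid genes 0.024 without both. The alternatives with Cyp2c23 and with the dimmer Cyp2c55 probe set were chosen after seeing the data.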
